A study of Rattus norvegicus with 9 samples.

Results

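Endothelial cells line blood and lymph vessels, and 314 of the 114232 cells kept from rat tibia osteotomy sites carried their transcripts. A cell counted as endothelial when it held at least 1 unique molecular identifier (UMI, a tag that marks a single captured transcript) of Cdh5, at least 1 of Pecam1, and at least 2 over Kdr, Emcn, Egfl7, Flt1 and Tek together. The cells were thus chosen by the measured UMIs of these 7 genes, whose levels are given as description and support nothing. The study asked how radial extracorporeal shock wave treatment (rESWT, pressure pulses applied through the skin) of a circular tibial osteotomy changes healing of a wound on the foot. All rats were male Sprague-Dawley animals of 6 to 8 weeks with a 3-mm circular cortical cut in the proximal tibia and a 4-mm full-thickness wound on the back of the hind paw. The TO group had surgery alone, and the TOE group had the same surgery and 300 impulses of rESWT at 3 bar and 5 Hz at the osteotomy site on day 2 and on day 4. Droplet single-cell RNA sequencing was done on tissue of the osteotomy site. Libraries are named by arm, day and hours after the session or the matching hour: TO 2d 0h, TO 2d 4h, TO 4d 4h, TO 4d 24h, TOE 2d 4h, TOE 2d 24h, TOE 4d 4h and TOE 4d 24h. TOE 2d 4h and TOE 2d 24h were thus collected before the session of day 4. The untreated library of day 2 at 24 h is not analysed here, so TOE 2d 24h and TO 2d 0h had no matched partner. Each condition was 1 library, and the sources used here do not name how many rats it held. A difference within a matched pair therefore has no replicate check and no p-value, and each interval covers counting error only. A test of the arm was run only across the 3 matched pairs together.

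Endothelial cells are held together by VE-cadherin, the product of Cdh5, and read the growth factor VEGF through the receptors made from Kdr and Flt1. They differ along the vessel tree. Arterial cells use Notch ligands and the gap junction proteins of Gja4 and Gja5, sinusoidal cells of bone marrow carry scavenger receptors such as those of Stab1, Stab2 and Mrc1, and tip cells of growing sprouts release Apln and Esm1. In bone they also feed the blood-forming niche with stem cell factor (Kitlg) and Cxcl12.

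The label was checked on 30 endothelial identity genes that the rule did not use. All 30 had UMIs in the cells, and 29 were at least 2-fold higher in them than in all other cells. The exception was Fli1, an ETS-family transcription factor, at 1.58-fold. Their summed level was 6976 to 9437 CPM (the UMIs of a gene scaled to the total UMIs of the summed cells, in the usual CPM unit) over the libraries, against 469 to 766 CPM in the other cells. Among the 25 genes with the largest ratios were the transcription factors Hoxb7 (36.6 against 0.0191 CPM), Sox7, Sox17 and Sox18, the adhesion receptor gene Adgrl4 (663 against 0.384 CPM), the VE-cadherin partner gene Ptprb (450 against 0.304 CPM), Gpihbp1, Sele, Ecscr, Robo4 and Aplnr. Adgrl4 was found in 304 of the 314 cells. Over 5821 genes with at least 200 UMIs in the endothelial cells, 1380 were at least 2-fold higher than in the rest and 387 at least 2-fold lower, and 123 were at least 100-fold higher. The counts of listed genes took a lower minimum, 20 UMIs in the endothelial cells. Proliferation genes had a median log2 ratio to the rest of the tissue of -1.21, with 0 of 20 at least 2-fold higher and 12 at least 2-fold lower. Of 13 antigen presentation genes 0 were at least 2-fold higher and 5 at least 2-fold lower (median -0.80), while B2m, the light chain of class I molecules, was 1.66-fold higher and higher in all 8 libraries. The summed antigen presentation list was above the rest in TOE 4d 24h, at 2685 against 2202 CPM, and below it in the other 7 libraries. Basement membrane and matrix genes, which build the sheet beneath the endothelium, sat higher, 25 of 32 by at least 2-fold with a median log2 ratio of 5.43.

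Promoters of the genes that define these cells were read to show their sequence. RefSeq promoters (build GRCr8, 250 bases before to 50 after the start) were held for 22 of the 37 rule and identity genes (29 promoters, since some genes have several starts). ETS-family factors, among them the products of Erg and Fli1, bind a short core, and the string CAGGAAG, searched on both strands, was in 8 of the 29 (27.6%) and in 12.5% of all 33469 promoters. Of the other ETS strings, CCGGAAG was in 0 of the 29 and in 8.75% of all promoters, GGAAGT in 27.6% and 22.6%, and CAGGAAGT in 3.45% and 3.05%. The promoters of Robo4, a guidance receptor of endothelium, at chr8:45308489-45308788 on the plus strand, and of Egfl7, a secreted vessel factor, at chr3:29805381-29805680 on the plus strand, are shown 5′ to 3′ with the match in capitals. The match begins 50 bases before the start in Robo4 and 121 bases before it in Egfl7.
Robo4: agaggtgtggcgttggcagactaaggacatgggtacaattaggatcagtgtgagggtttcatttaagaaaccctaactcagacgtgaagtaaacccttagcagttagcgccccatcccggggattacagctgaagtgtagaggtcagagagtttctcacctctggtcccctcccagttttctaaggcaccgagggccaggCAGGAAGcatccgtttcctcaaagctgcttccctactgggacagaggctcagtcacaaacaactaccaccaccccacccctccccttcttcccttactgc
Egfl7: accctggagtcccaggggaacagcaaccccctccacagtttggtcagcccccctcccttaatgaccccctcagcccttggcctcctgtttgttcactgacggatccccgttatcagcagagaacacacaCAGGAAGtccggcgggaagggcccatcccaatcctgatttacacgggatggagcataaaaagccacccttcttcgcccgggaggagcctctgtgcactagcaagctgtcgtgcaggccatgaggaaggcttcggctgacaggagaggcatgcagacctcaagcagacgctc
This match was 1 of 15 strings searched on both strands. The ETS strings named above overlap each other. For CREB and AP-1 factors they were TGACGTCA, its shorter form TGACGT and, for AP-1, TGACTCA. The GATA string was AGATAAG, the SOX string was ACAATG, the TATA box was TATAAA, the E-box was CACGTG, the SP1 or KLF string was GGGGCGGGG, and a last string was TTCCCAGG. A pair of serum response elements (CArG boxes) was also searched. A match describes the letters only.

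The share of endothelial cells differed among libraries. It was 0.152% in TO 2d 0h (22 of 14511 cells, exact 95% interval 0.0950 to 0.229%), 0.202% in TO 2d 4h (31 of 15318), 0.401% in TO 4d 4h (51 of 12733) and 0.156% in TO 4d 24h (22 of 14104). In the shock-treated arm it was 0.148% in TOE 2d 4h (25 of 16945), 0.589% in TOE 2d 24h (85 of 14435, 0.471 to 0.728%), 0.476% in TOE 4d 4h (66 of 13857) and 0.0973% in TOE 4d 24h (12 of 12329, 0.0503 to 0.170%). TOE 2d 24h, TOE 4d 4h and TO 4d 4h had the highest shares, and the 5 other libraries lay below all of these. In the matched pairs the TOE share was 0.729 times the TO share at 2d 4h (0.413 to 1.28), 1.19 times it at 4d 4h (0.813 to 1.75) and 0.624 times at 4d 24h (0.281 to 1.32). All 3 intervals include 1, so no difference in share between the arms was detectable at these cell numbers. With UMIs of 3 of the 7 rule genes as the rule, the direction turned at 4d 4h (0.778% in TO and 0.700% in TOE), the shares at 4d 24h were 0.326% and 0.316%, and TOE 2d 4h was lowest at 0.289%.

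**Figure D1:**
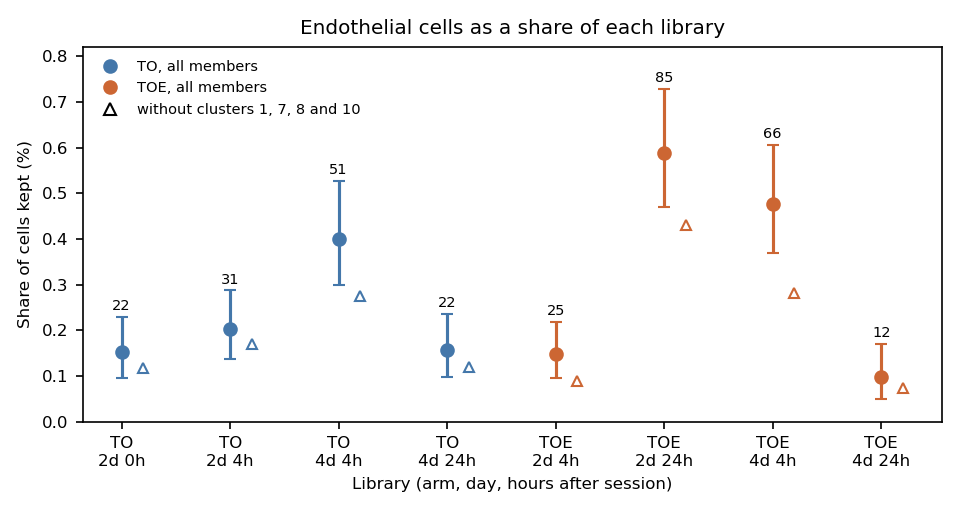
Share of cells kept (%, vertical axis) that were endothelial in each library (horizontal axis), TO in blue and TOE in orange, with exact 95% intervals and the number of cells above each bar. The open triangles leave out the 4 clusters led by markers of other cell classes, and TOE 2d 24h is highest at 0.589% while TOE 4d 24h is lowest at 0.0973%.

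The endothelial cells held more UMIs than most cells. Their median depth was 14819 to 22629 UMIs by library, against 4572 to 5790 UMIs over all cells kept. At the edge of the rule, 7 cells held exactly 2 UMIs over the 5 summed genes and had a median of 1244 UMIs, and 11 cells just outside held 1 and had a median of 14426 UMIs. No barcode of an endothelial cell was shared between libraries as a member of both, although each pair of libraries shared 38 to 108 barcodes among the cells kept.

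Clustering of the 314 cells gave 10 clusters, and some carried other cells' transcripts. Markers of other cell classes were the most raised list in 4 clusters. These were B-lineage genes in cluster 1 (32 cells, 6 of 6 detected markers raised at least 2-fold), erythroid genes in cluster 7 (32 cells, 8 of 8), neutrophil genes in cluster 8 (19 cells, 9 of 9) and pericyte and smooth muscle genes in cluster 10 (11 cells, 8 of 9). Together these held 94 of the 314 cells (29.9%). The 30 identity genes summed to 6357 CPM in these cells and to 8701 CPM in the other 220, so the endothelial transcripts were there in both. Only 8 of the 314 cells had a doublet score above 0.25, and 5 of the 8 were in cluster 8. Over the libraries the summed level in endothelial cells ran from 1049 to 11878 CPM for the neutrophil list, from 239 to 14527 CPM for the erythroid list, from 674 to 1635 CPM for the B-lineage list and from 78.3 to 636 CPM for the pericyte list. The endothelial cells of TOE 4d 24h summed to the fewest UMIs, 242807, and those of TOE 2d 24h to the most, 2222968. Comparisons within pairs are therefore given below for all 314 cells, and for many lists and genes again for the 220. The comparison by hour is given for all 314 only.

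Of the remaining 6 clusters 3 could be named from the marker lists. Cluster 6 (42 cells) had 14 of 14 detected arterial genes raised, with Bmx, Sema3g and Fbln2 among its leading genes, and is called arterial-like. Clusters 2 (42 cells, 8 of 14 sinusoidal genes raised, with Stab2 leading) and 4 (36 cells, 10 of 14, with Mrc1 leading) are called sinusoidal-like. Claudin 5, the tight junction protein gene Cldn5, was at 807 CPM in cluster 6 and at 49.98 CPM in cluster 2, and the fenestral diaphragm gene Plvap was at 290 CPM in cluster 6 and 963 CPM in cluster 2. Cluster 5 (35 cells) had 6 of 7 lymphatic genes raised, at a summed 2168 CPM against 436 CPM in the other endothelial cells, but none of them was among its 10 leading genes. Cluster 3 had 3 of 17 tip genes raised. The counts of these clusters depend on the resolution of the clustering, 0.8 here. At 0.5, 1 cluster of 24 cells was led by sinusoidal genes and 1 of 61 cells by arterial genes, and the clusters led by other cell classes held 31, 54, 25 and 19 cells. The largest cluster at 0.5, of 100 cells, was led by the lymphatic list, with 5 of 7 genes raised and Ccl21, Mmrn1 and Pdpn among its 10 leading genes. At 1.2, the sinusoidal clusters held 27 and 25 cells and the arterial cluster 40, and the lymphatic list led clusters of 32 and 21 cells. Clusters 3, 5 and 9 were left unnamed, and 26 of the 42 cells of cluster 3 came from TOE 2d 24h. Prox1 and Pdpn, which mark lymphatic endothelium, were found together in 5 of the 314 cells, and Prox1 was at 0.111 CPM in other cells. The lymphatic chemokine gene Ccl21 was at 3319 CPM in TO 2d 0h, 329 CPM in TO 4d 4h and 654 CPM in TOE 4d 4h and had 0 UMIs in the other 5 libraries, and all its UMIs in TO 2d 0h and in TO 4d 4h came from 1 cell each.

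**Figure D2:**
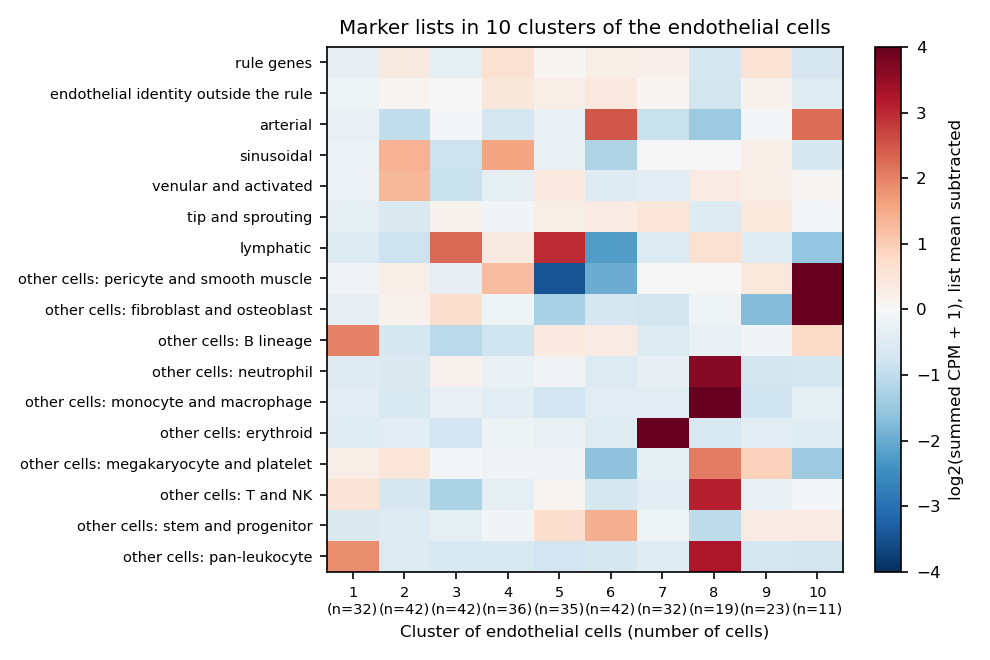
Summed level of each marker list (rows) in the 10 clusters of endothelial cells (columns, with cell numbers), as log2(summed CPM + 1) with the mean over clusters of each list subtracted. Red is above and blue below that mean, and clusters 1, 7, 8 and 10 are red for B-lineage, erythroid, neutrophil and pericyte lists while clusters 6 and 10 are red for the arterial list.

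The genes of the rule varied among libraries. Cdh5 was at 425, 621, 618 and 539 CPM in TO 2d 0h, TO 2d 4h, TO 4d 4h and TO 4d 24h, and at 582, 554, 517 and 502 CPM in TOE 2d 4h, TOE 2d 24h, TOE 4d 4h and TOE 4d 24h. Flt1 ran from 810 CPM in TOE 2d 24h to 2514 CPM in TO 2d 4h, and Emcn, a sialomucin of veins and sinusoids, from 542 CPM in TO 2d 0h to 1005 CPM in TO 4d 24h. In the 4d 24h pair Kdr was at 736 CPM in TO and 329 CPM in TOE, and Egfl7 at 274 and 610 CPM. These values are part of how the cells were chosen.

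Within the matched pairs a gene was called when its level differed at least 2-fold (with 0.5 UMI added to each count), it had at least 20 UMIs over the pair, and the exact 95% interval of the ratio of its UMIs lay on one side of 1. At 2d 4h, 5.80% of 7450 genes were called higher and 4.59% lower in TOE. At 4d 4h, 5.41% of 10132 genes were called higher and 2.20% lower. At 4d 24h, 6.94% of 5343 genes were called higher and 12.3% lower. These calls describe 2 libraries each and are the background for the counts that follow. The median log2 ratio of all genes measured was 0.09, 0.09 and -0.03 in the 3 pairs.

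Across the 3 pairs together no gene passed a test of the arm. The summed UMIs of the 6 libraries were fitted with edgeR's quasi-likelihood test, with the pair as a block and 2 residual degrees of freedom, so that libraries of different days and hours stood in as replicates of an arm. Of 7439 genes 0 (0%) had a Benjamini-Hochberg adjusted p under 0.05, the smallest being 0.542, and 371 had an unadjusted p under 0.05. The differences below are those of single pairs.

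At 2d 4h, 11 of 13 arterial genes measured were called lower in the TOE library and 0 higher, with a median log2 ratio of -2.06. The arterial-like cluster 6 held 6 of the 31 cells of TO 2d 4h (19.4%, exact 95% interval 7.45 to 37.5%) and 0 of the 25 cells of TOE 2d 4h (0 to 13.7%), and these intervals overlap. Gja4, the gap junction protein connexin 37, was at 213 CPM in TO 2d 4h (130 UMIs in 11 cells) and 4.37 CPM in TOE 2d 4h (2 UMIs in 2 cells), a ratio of TO over TOE of 39.2 (13.2 to 407). Gja5, connexin 40, was at 72.2 CPM and 2.19 CPM (44 and 1 UMIs), a ratio of 22.3 (5.63 to 1334), and 52.3% of the TO UMIs came from 1 cell. Both connexin genes were near 0 in the TOE library.

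Matrix genes of the arterial wall went the same way. Mgp, an inhibitor of calcification, was at 494 CPM in TO 2d 4h and 2.19 CPM in TOE 2d 4h (301 and 1 UMIs, ratio 151, interval 40.3 to 8957), and 63.1% of its TO UMIs came from 1 cell. Fbln2, a fibulin of elastic fibres, was at 133 CPM and 0 CPM (81 and 0 UMIs), at least 20.3-fold lower against a floor of 3 UMIs per library. Fbln5, its relative, was at 148 and 4.37 CPM. In the other 6 libraries Mgp was at 499 CPM in TO 2d 0h, 25.6 CPM in TO 4d 4h, 2.56 CPM in TO 4d 24h, 596 CPM in TOE 2d 24h, 543 CPM in TOE 4d 4h and 4.12 CPM in TOE 4d 24h. The untreated library TO 4d 24h had 0 UMIs of Gja5, Fbln2 and Fbln5, and its summed arterial list, 362 CPM, was below the 444 CPM of TOE 2d 4h.

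Notch genes of arteries showed a mixed picture at 2d 4h. Efnb2, the arterial ephrin, was at 468 CPM in TO and 112 CPM in TOE, and Sox17, a transcription factor of arterial fate, at 204 and 91.8 CPM. Efnb2 was called lower in the 220 cells too, Sox17 only with all cells included. The Notch ligand gene Dll4 was at 125 CPM in TO and 112 CPM in TOE, a ratio of TOE over TO of 0.896 (0.614 to 1.29), and Jag1 was at 54.2 and 45.9 CPM. Neither of these ligands was called. A further ligand gene, Jag2, was at 69.0 CPM in TO and 28.4 CPM in TOE and was called lower with all cells and in the 220. Hey1, a Notch target, was at 31.2 and 10.9 CPM and was called lower with all cells included, but had too few UMIs to be measured in the 220. The receptor gene Notch4 was at 161 and 67.8 CPM and was called lower only with all cells included.

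The arterial difference rested on few cells. In the 220 cells outside the clusters with foreign markers, 8 of 12 arterial genes were called lower (median -3.32). With the arterial-like cluster left out, 2 of 7 were called lower, Gja4 and Efnb2, with a median of -0.33. That cluster was named from this same list, so a smaller difference without it was built in and fewer genes could be measured. The summed arterial genes reached 12410 CPM in the highest cell of TO 2d 4h and 1203 CPM in the highest of TOE 2d 4h, while the medians over cells were 875 and 549 CPM. In the rest of the tissue the median log2 ratio of the list was -0.34.

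**Figure D3:**
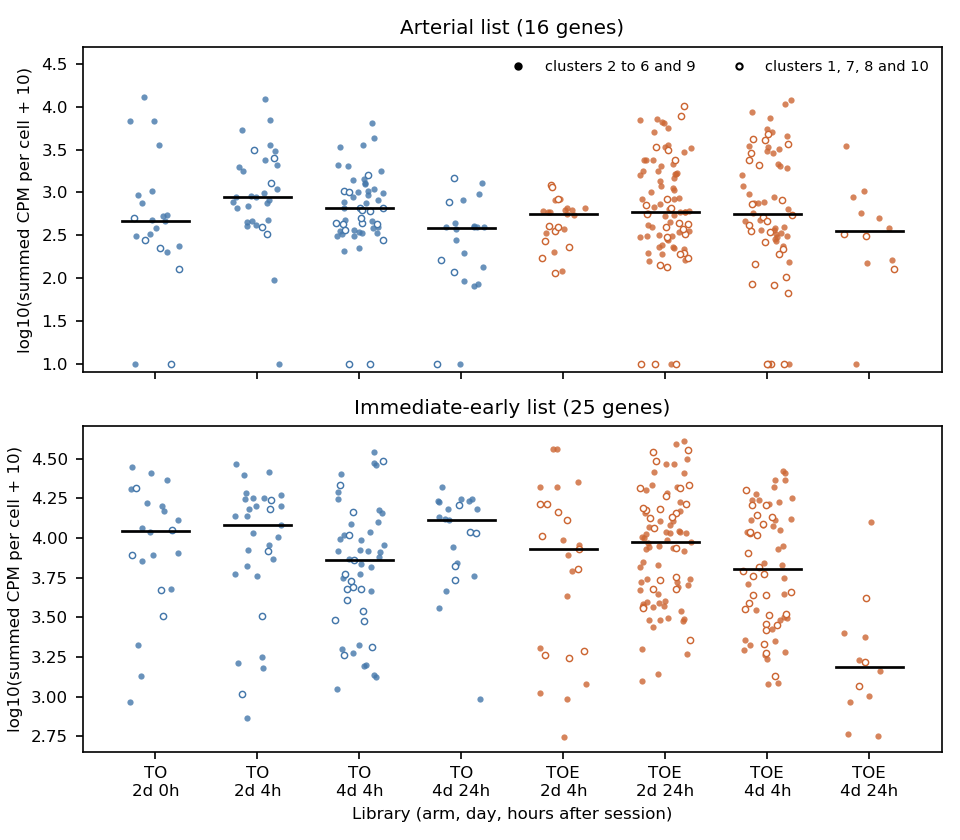
Summed level per endothelial cell, log10(CPM + 10), of the arterial list (top) and the immediate-early list (bottom) in the 8 libraries, with 1 point per cell, open points for cells of clusters 1, 7, 8 and 10, and black bars at the medians. TOE 2d 4h lacks the high arterial cells seen in TO 2d 4h (highest 1203 against 12410 CPM), and the TOE 4d 24h cells lie low for immediate-early genes (median 1536 against 13040 CPM in TO 4d 24h).

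Of 15 angiocrine genes measured at 2d 4h, which encode factors that endothelium gives to its surroundings, 7 were called lower in TOE and 0 higher (median log2 ratio -0.62, and -0.65 in the rest of the tissue), and 6 of 15 were lower in the 220 cells. Of 5 pan-leukocyte markers 4 were called higher in this pair (median 1.38). Cells of the clusters with foreign markers were 5 of 31 in TO 2d 4h and 10 of 25 in TOE 2d 4h. Cxcl12, which keeps blood stem cells in the marrow, was at 236 CPM in TO and 13.1 CPM in TOE (144 and 6 UMIs, ratio 16.7, interval 8.08 to 49.9). It was also lower in the other cells, by a log2 ratio of -3.07. Kitlg was at 716 and 337 CPM.

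Values of 5 more genes called lower at 2d 4h, from several lists and chosen after they were seen, were as follows. Bmp2, a bone morphogenetic protein, was at 69.0 CPM in TO and 26.2 CPM in TOE, and Vegfc, the growth factor of lymphatic vessels, at 128 and 24.0 CPM. Il6 was at 117 and 8.75 CPM, with 85.9% of its TO UMIs in 1 cell. Cav1, the coat protein of caveolae, was at 345 and 85.3 CPM and Unc5b, a netrin receptor, at 184 and 43.7 CPM. All 5 genes were also called lower in the 220 cells.

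Among the largest ratios toward TOE at 2d 4h was that of Fgf23. Fgf23, a phosphate-regulating hormone better known from bone cells, was at 8.21 CPM in TO (5 UMIs in 3 cells) and 192 CPM in TOE (88 UMIs in 6 cells), a ratio of TOE over TO of 21.4 (9.67 to 74.0), and 50% of its TOE UMIs came from 1 cell. It was at 0 to 86.5 CPM in the other 6 libraries, the highest being TOE 4d 24h with all UMIs in 1 cell, and at 0.120 CPM in other cells. Timp1, an inhibitor of matrix proteases, was at 55.8 and 540 CPM (34 and 247 UMIs, ratio 9.55), and 53.8% of the TOE UMIs came from 1 cell.

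The TOE value of Fgf23 was above all other libraries. Dab1, an adaptor of reelin signalling, was at 8.21 and 76.5 CPM, and Apln, the tip-cell peptide, at 70.6 and 146 CPM. Pfkfb3, a driver of endothelial glycolysis, was at 91.9 and 254 CPM. Lyve1, a hyaluronan receptor of sinusoids and lymphatics, was at 55.8 and 136 CPM. Fgf23, Timp1 and these 4 were also called in the 220 cells, whereas Aff3 and Lyz2, also among the largest ratios, were not. Ctsz, Slpi and Ighv, with large ratios too, had under 20 UMIs in the 220 cells and could not be called there. Ighv, an immunoglobulin entry, had 12 UMIs in TO and 85 UMIs in 18 cells of TOE (ratio 9.11). In the 220 cells it had 6 and 12 UMIs. Timp1 had a log2 ratio of 1.21 in the rest of the tissue.

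Other vessel subtypes were counted in the same way at 2d 4h. Of 13 sinusoidal genes 1, Lyve1, was called higher and 1, Stab2, lower, with a median of 0.12. Stab2 was at 131 CPM in TO and 26.2 CPM in TOE (80 and 12 UMIs), a ratio of TO over TOE of 4.84 (2.71 to 10.1), and 51.2% of the TO UMIs came from 1 cell. Of 12 venular and activation genes, 4 were called lower and 0 higher (median -0.53, and -0.56 in the rest of the tissue). In the 220 cells 5 of 11 were lower and 1 higher. Of 2 lymphatic genes measured 1, Lyve1 again, was higher (median 1.03). Of the venular genes Selp was at 443 and 214 CPM, and Cx3cl1, a tethered chemokine for monocytes, at 32.8 and 0 CPM.

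At 4d 4h the arterial genes differed the other way. Of 14 measured, 6 were called higher in TOE and 0 lower, with a median log2 ratio of 0.88, and 8 of 14 in the 220 cells (median 1.13). Mgp was at 25.6 CPM in TO 4d 4h (32 UMIs) and 543 CPM in TOE 4d 4h (701 UMIs), a ratio of TOE over TO of 20.9 (14.9 to 31.2). Gja5 was at 8.01 and 93.7 CPM (10 and 121 UMIs, ratio 11.2, interval 6.14 to 25). Gja4 was at 83.3 and 178 CPM, a ratio of 2.13 (1.69 to 2.72). The medians over cells of the summed arterial list did not follow, at 641 CPM in TO and 554 CPM in TOE (807 and 775 CPM in the 220 cells), while the highest cells were at 6513 and 12090 CPM.

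The fibulins followed at 4d 4h, with Fbln2 at 30.4 and 166 CPM and Fbln5 at 40.9 and 183 CPM. Dll4 was at 97.7 and 117 CPM and was not called. The arterial-like cluster 6 held 7 of the 51 cells of TO 4d 4h and 10 of the 66 cells of TOE 4d 4h. With it left out, 4 of 12 arterial genes were called higher, but further endothelial cells high for the list stayed in. Cluster 10 stayed, with the list at 4089 CPM against 4891 CPM in cluster 6. In cluster 5 the highest cell was at 1390 CPM in TO 4d 4h and at 5109 CPM in TOE 4d 4h. In other cells the list had a median log2 ratio of -0.22.

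Of 13 sinusoidal genes measured at 4d 4h, 3 were called higher in TOE and 0 lower (median 0.63), and 6 of 13 were higher in the 220 cells. Mrc1, the mannose receptor, was at 24.0 CPM in TO and 90.6 CPM in TOE, a ratio of 3.72 (2.51 to 5.83). Dnase1l3, a secreted nuclease of sinusoids, was at 32.8 and 104 CPM, and Stab1 at 54.5 and 113 CPM. Stab2 was at 43.3 and 60.4 CPM and was not called.

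Of the 7 lymphatic markers 3 were called higher in TOE at 4d 4h and 0 lower (median 0.99). Prox1, the master transcription factor of lymphatic fate, was at 11.2 CPM in TO and 27.1 CPM in TOE, and was not called in the 220 cells. Prox1 had UMIs in 12 of the 66 cells of TOE 4d 4h.

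Of 17 tip-cell genes measured at 4d 4h, 4 were called lower in TOE and 0 higher, with a median of -0.53, and 13 were not called. In the 220 cells 4 were lower and 1, Ramp3, higher, and with each cell weighted equally 2 were lower. Apln was at 277 CPM in TO (346 UMIs in 17 cells) and 61.2 CPM in TOE (79 UMIs in 15 cells), a ratio of TO over TOE of 4.51 (3.54 to 5.86). Esm1, or endocan, was at 193 and 8.51 CPM (241 and 11 UMIs), and 85.1% of its TO UMIs came from 1 cell. Adm, a vessel-dilating peptide, was at 24.8 and 6.19 CPM. Angpt2, which loosens vessels through the Tek receptor, was at 147 and 74.3 CPM and was called lower in the 220 cells only, while Kcne3, at 156 and 75.1 CPM, was called only with all cells included.

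Of single genes from other lists at 4d 4h, Cldn5 was at 108 CPM in TO and 389 CPM in TOE, a ratio of 3.58 (2.97 to 4.38). Igfbp3, which binds insulin-like growth factors, was at 457 and 1928 CPM, and Aqp1, a water channel, at 150 and 482 CPM. These 3 were higher in TOE in the 220 cells too.

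Selectins split, since Selp (P-selectin) was at 43.3 CPM in TO and 130 CPM in TOE and Sele (E-selectin) at 101 and 34.8 CPM. The basement membrane gene Col15a1 was at 791 and 194 CPM (ratio of TO over TOE 4.08, interval 3.56 to 4.72), and Lamb1, a laminin chain, at 193 and 83.6 CPM. Kitlg was at 847 and 415 CPM. Edn1, the constrictor endothelin 1, was at 41.7 and 18.6 CPM. Among the lowest ratios were also those of Tll1, a protease of the Bmp1 family, at 135 and 13.2 CPM, and Gna14, a G-protein subunit, at 46.5 and 2.32 CPM, with 65.5% of its TO UMIs in 1 cell.

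Pericyte genes moved with the 4d 4h pair. Of 9 pericyte and smooth muscle markers measured, 8 were called higher in TOE (median log2 ratio 4.63), and the largest ratios of the pair were those of Notch3, Pde3a, Gucy1a2, Rgs5, Tagln, Prrx1, Myl9 and Palm2. Fibroblast and osteoblast markers, Prrx1 among them, moved too, with 6 of 6 measured called higher (median 2.12). Their summed level was 131 CPM in TO and 611 CPM in TOE, and 8966 CPM in cluster 10. Notch3 had 0 UMIs in TO and 72 UMIs in 5 cells of TOE, at least 23.2-fold higher against a floor of 3 UMIs per library. In the 220 cells Notch3 had 0 UMIs in both libraries, and 1 of the 2 pericyte genes measured was called higher. The 220 leave out the cluster led by these markers, so this count cannot check them. The values given above for single arterial and sinusoidal genes include that cluster, cluster 10, which held 5 cells of TOE 4d 4h and 0 of TO 4d 4h. In the 220 cells Mgp was at 30.0 CPM in TO and 485 CPM in TOE.

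At 4d 24h immediate-early genes were lower in TOE. These genes are switched on within minutes of a stimulus, and many of them code for transcription factors. Of 18 measured, 16 were called lower and 0 higher, with a median log2 ratio of -1.95, and 16 of 18 in the 220 cells (median -1.77). Fos was at 1867 CPM in TO 4d 24h (728 UMIs in 21 cells) and 383 CPM in TOE 4d 24h (93 UMIs in 8 cells), a ratio of TO over TOE of 4.85 (3.92 to 6.12). In the other 6 libraries it lay between 1350 and 2416 CPM, so the TOE 4d 24h value was below all others, and 54.8% of its UMIs came from 1 cell. Dusp1, a phosphatase that turns off MAP kinases, was at 582 and 107 CPM against 378 to 863 CPM elsewhere.

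Further members of the list were lower too. Atf3 was at 959 CPM in TO and 132 CPM in TOE, a ratio of 7.18 (5.07 to 10.8). Klf6 was at 1018 and 194 CPM. Jun was at 2336 and 688 CPM, and 86.8% of the TOE UMIs came from 1 cell. Junb at 574 and 412 CPM and Egr1 at 349 and 445 CPM were not called.

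Cell by cell, the summed list ran from 960 to 21050 CPM in TO 4d 24h with a median of 13040 CPM, and from 558 to 12680 CPM in TOE 4d 24h with a median of 1536 CPM. The medians of the other 6 libraries were 6344 to 11990 CPM. The list was lower both in the sinusoidal-like clusters (13 and 3 cells, 10 of 18 genes lower and 1 higher, median -1.35) and in the other clusters (9 and 9 cells, 13 of 15 lower, median -2.73). This split did not hold the cluster constant. Cluster 2 was the highest of all clusters for this list, at 17340 CPM, and cluster 4 the lowest, at 3722 CPM. TO 4d 24h had 11 cells in cluster 2 and 2 in cluster 4, against 2 and 1 in TOE 4d 24h. In the rest of the tissue the median was -0.71, with Fos at a log2 ratio of 0.54 and Jun at 0.06.

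Promoters of the immediate-early genes were searched for the strings their regulators bind, and 3 that hold one are shown. RefSeq held promoters of 17 of its 25 genes. The string TGACGTCA, the full cAMP response element bound by CREB and ATF factors, was in 5 of the 17 (29.4%: Btg2, Dusp1, Ier2, Jund and Maff) and in 1.83% of all 33469 promoters. The string TGACTCA, bound by the AP-1 factors that Fos and Jun encode, was in 0 of the 17 and in 4.63% of all. The shorter TGACGT was in 41.2% of the 17 and in 7.94% of all. Strings of other factors were also in a larger share of the 17, with GGGGCGGGG in 23.5% against 9.73% and the E-box in 23.5% against 6.42%. Of the serum response elements 1 was in 1 of the 17, Egr1, and the other in 0. Dusp1 lies at chr10:17184603-17184902 on the plus strand with the match 124 bases before the start. Maff, a small Maf factor, lies at chr7:112792537-112792836 on the plus strand with the match 51 bases before it. Btg2, an anti-proliferative gene, lies at chr13:48087641-48087940 on the minus strand with the match 201 bases before it. The build is GRCr8 and capitals mark the match.
Dusp1: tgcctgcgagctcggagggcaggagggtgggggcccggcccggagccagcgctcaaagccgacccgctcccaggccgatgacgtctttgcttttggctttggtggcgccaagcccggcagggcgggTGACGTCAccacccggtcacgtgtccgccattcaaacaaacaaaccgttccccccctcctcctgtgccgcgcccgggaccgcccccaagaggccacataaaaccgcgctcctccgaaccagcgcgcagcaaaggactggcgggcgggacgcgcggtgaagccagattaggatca
Maff: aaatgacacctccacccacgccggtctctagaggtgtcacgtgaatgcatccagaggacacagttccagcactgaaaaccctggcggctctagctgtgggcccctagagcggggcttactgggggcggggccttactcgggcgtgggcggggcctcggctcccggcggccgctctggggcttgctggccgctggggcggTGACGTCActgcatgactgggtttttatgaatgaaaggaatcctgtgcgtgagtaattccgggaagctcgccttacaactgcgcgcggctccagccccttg
Btg2: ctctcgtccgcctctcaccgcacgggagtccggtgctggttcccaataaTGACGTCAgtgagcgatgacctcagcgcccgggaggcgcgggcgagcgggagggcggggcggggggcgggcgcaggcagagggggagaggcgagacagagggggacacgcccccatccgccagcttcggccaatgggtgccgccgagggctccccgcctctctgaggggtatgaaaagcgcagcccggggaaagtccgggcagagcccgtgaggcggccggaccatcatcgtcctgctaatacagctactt
In the matched pair at 4d 24h Maff was at 76.9 and 16.5 CPM and Btg2 at 1134 and 243 CPM. At 2d 4h Maff was higher in TOE, at 46.0 CPM in TO and 94.0 CPM in TOE.

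The sinusoidal list was compared at 4d 24h in libraries whose cells lay in different clusters. The sinusoidal-like clusters held 13 of the 22 cells of TO 4d 24h, 11 of them in cluster 2, and 3 of the 12 cells of TOE 4d 24h. Of 12 sinusoidal genes measured, 6 were called lower in TOE and 0 higher (median -1.16, and -0.62 in the rest of the tissue), and 6 of 12 in the 220 cells (median -1.11). Stab2 was at 146 CPM in TO (57 UMIs in 8 cells) and 4.12 CPM in TOE (1 UMI in 1 cell), a ratio of 23.9 (6.12 to 1426). Mrc1 was at 185 and 24.7 CPM and Dnase1l3 at 410 and 86.5 CPM. Vcam1, an adhesion molecule for leukocytes, was at 426 and 78.3 CPM. Nr2f2, the transcription factor of venous fate, was at 392 and 470 CPM and was not called. Of the arterial list 4 genes were measured in this pair and 0 were called in either direction.

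Of 12 flow and tone genes measured at 4d 24h, 5 were called lower in TOE and 1, Ptgs1, higher. The sinusoidal-like cluster 2 was the highest of the 10 clusters for this list, at 4996 CPM. It held 11 of the 22 cells of TO 4d 24h and 2 of the 12 of TOE 4d 24h, and its part in these values was not tested. Klf2 and Klf4, transcription factors induced by laminar flow, were at 998 and 297 CPM and at 459 and 70.0 CPM. Klf4 also had a log2 ratio of -2.11 in the other cells, and Klf2 of -0.09. Ednrb, an endothelin receptor, was at 323 and 70.0 CPM.

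Of 11 lipid and solute uptake genes measured in the same pair, 5 were called lower and 1, Slco2a1, higher (median log2 ratio -0.67, and -0.94 in the rest of the tissue). In the 220 cells 3 of 8 were lower and 0 higher. Fabp4, a fatty acid carrier of capillaries, was at 4293 CPM in TO 4d 24h and 202 CPM in TOE 4d 24h, a ratio of 21.1 (16 to 28.9), and was lower in the other cells too (log2 ratio -3.36). Gpihbp1, which anchors lipoprotein lipase on capillary walls, was at 510 and 12.4 CPM (199 and 3 UMIs, ratio 35.5, interval 13.9 to 202). Angptl4, an inhibitor of that lipase on the hypoxia list, had 202 UMIs in 15 cells of TO and 0 in TOE, at least 41.9-fold lower, and its log2 ratio in the other cells was -2.46. Alk, a receptor kinase, had 128 and 0 UMIs, at least 26.6-fold lower, and its log2 ratio in the other cells was 0.03. Alk was among the 10 leading genes of both sinusoidal-like clusters, which held 13 of the 22 cells of TO and 3 of the 12 of TOE.

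Of 13 leukocyte adhesion and recruitment genes measured at 4d 24h, 4 were called lower in TOE and 1, Jam2, higher (median log2 ratio 0.35). Cluster 2 was the highest cluster for this list too, at 4378 CPM, and Cxcl1, Cxcl2 and Vcam1 were raised in it. The part of that cluster in these values was not tested. Cxcl1, which draws neutrophils, was at 1021 and 156 CPM, and Cxcl2 at 297 and 4.12 CPM, and both were lower in other cells too (log2 ratios -3.67 and -2.22). From other lists, Tfpi2, a protease inhibitor, was at 451 and 20.6 CPM, and Timp3 was at 305 and 41.2 CPM. Hes1, a Notch target, was at 146 and 20.6 CPM and below its level in all other libraries, 127 to 251 CPM.

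At 4d 24h, 371 genes were called higher in TOE and 655 lower. Genes of other cells were among the largest ratios toward TOE, with Bach2 at 113 and 960 CPM, Blnk at 28.2 and 185 CPM and S100a8 at 723 and 3793 CPM, 81% of the latter from 1 cell. In the 220 cells Bach2 and S100a8 were not called, and Blnk had too few UMIs to be measured. The summed neutrophil list was at 6416 and 11878 CPM and the B-lineage list at 674 and 1635 CPM. Of endothelial genes, Vwa1, a basement membrane protein gene, was at 56.4 CPM in TO (22 UMIs in 10 cells) and 486 CPM in TOE (118 UMIs in 9 cells), a ratio of TOE over TO of 8.46 (5.43 to 14.3), and 57.6% of the TOE UMIs came from 1 cell. Vwf, the clotting factor stored in endothelium, was at 233 and 610 CPM, a ratio of 2.61 (2.00 to 3.43), with 64.2% of the TOE UMIs in 1 cell. Col18a1, the source of endostatin, was at 315 and 898 CPM, and Ptn, the growth factor pleiotrophin, at 233 and 898 CPM.

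Ptn was higher in the other cells as well, by a log2 ratio of 3.07, and Vwa1 by 0.29. Ccn2, a target of the YAP coactivator, was at 59.0 and 367 CPM, with its TOE UMIs in 3 cells and 62.9% of them in 1. Erythroid genes also moved with this pair, 7 of 7 called lower in TOE, with a median of -6.27 in the rest of the tissue. In the 220 cells 3 erythroid genes were measured and 2 were called lower.

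**Figure D4:**
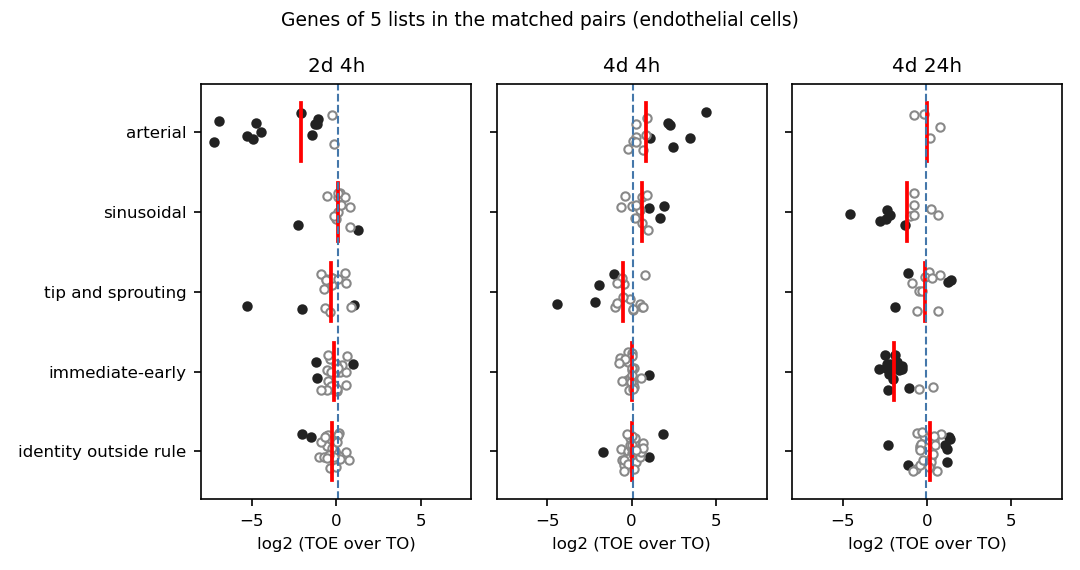
log2 ratio of TOE over TO (horizontal axis) for the genes of 5 lists (rows) in the 3 matched pairs, with filled points for called genes, open points for the others, a red bar at the median of the list and a dashed line at the median of all genes. The arterial median is -2.06 at 2d 4h but 0.88 in the 4d 4h pair, and the immediate-early median is -1.95 at 4d 24h, while the identity medians are -0.25, 0.05 and 0.18.

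The 3 pairs shared almost no calls. Of 5207 genes measured in all 3, 7 were called higher in each (Aff3, Arhgef18, Blnk, Kcnq5, Pax5, Rbfox1 and Reep1) and 0 were called lower in each. Blnk and Pax5 are B-cell genes, and 3 of the 4 B-lineage markers measured at 2d 4h were called higher there. In the 220 cells, which leave out the cluster led by these markers, 1 was measured and 0 were called. The identity list had median log2 ratios of -0.25, 0.05 and 0.18, with at most 5 of its 30 genes called in 1 direction.

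Purinergic genes, which sense or clear extracellular ATP, varied by library. In the 2d 4h pair 0 of the 7 genes measured were called. The 4d 4h pair had 2 of 9 called higher, the 4d 24h pair had 1 of 2, and neither had any called lower. P2rx7, the ATP-gated channel gene, had 1 to 33 UMIs per library, under the minimum of 20 UMIs in every matched pair. It was at 35.96 CPM in TO 2d 0h and 21.3 CPM in TO 2d 4h, then 5.61 CPM in TO 4d 4h and 5.13 CPM in TO 4d 24h. It was at 2.19, 14.8, 3.10 and 4.12 CPM in TOE 2d 4h, TOE 2d 24h, TOE 4d 4h and TOE 4d 24h. The level in other cells was 0.829 CPM. Entpd1, an enzyme that degrades ATP, was at 110 and 284 CPM in the 4d 24h pair. Nt5e, which makes adenosine, was at 9.61 and 24.8 CPM in the 4d 4h pair. Both were called higher.

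Libraries were also compared by the hour of collection. The 4 libraries collected at 4 h (TO and TOE, days 2 and 4) were compared with the 4 collected at 0 h or 24 h, and a gene was counted when all values of one set lay above all of the other. Of 8885 genes, 14.2% were higher at 4 h and 5.77% lower, and 490 of the 1258 higher genes were so in the other cells too. The hour and whatever else differed between those libraries cannot be told apart. The median mitochondrial share of the UMIs of the endothelial cells also separated the sets, at 1.95 to 2.45% in the libraries of 4 h and 2.74 to 3.68% in the others. The clusters differed as well. Cluster 9 held 6, 3, 6 and 7 cells of the 4 h libraries and 0, 0, 1 and 0 of the others, and cluster 3 held 0, 1, 0 and 2 against 6, 2, 26 and 5. The part of either in the values below was not tested. The shares of the lists below are given beside those of all genes, and nothing particular to a list is read from them.

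Of the basement membrane genes 7 of 32 (21.9%, against 14.2% of all genes) were higher at 4 h and 0 lower, and the other 25 overlapped. Adamts9, a matrix protease gene, was at 419 to 765 CPM at 4 h and 57.7 to 256 CPM at the other hours. Lamc1, a laminin chain, was at 439 to 943 and 148 to 341 CPM. Kitlg was at 337 to 847 and 128 to 270 CPM. None of these 3 separated in the other cells.

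Of the identity genes 6 of 30 (20%) were higher at 4 h and 3 (10%) lower, against 14.2% and 5.77% of all genes. Erg, the ETS factor that holds endothelial identity, was at 286 to 406 CPM at 4 h and 135 to 177 CPM at the other hours. From other lists, Zeb1, a factor of mesenchymal transition, was at 551 to 844 and 175 to 280 CPM. Angpt2 was at 41.5 to 147 and 11.2 to 36.4 CPM. Tgfbr1, a TGF-beta receptor gene, was at 136 to 228 and 32.9 to 54.0 CPM, and separated in other cells as well.

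Of the tip-cell genes 4 of 17 (23.5%) and of the mechanosensing genes 3 of 10 (30%) were higher at 4 h, with 0 lower in either list. Yap1, the coactivator of the Hippo pathway, was at 99.1 to 261 CPM at 4 h and 24.7 to 89.8 CPM at the other hours. Among TGF-beta and BMP genes 5 of 23 (21.7%) were higher and 0 lower, and Bmpr2, a BMP receptor gene, was at 802 to 1017 and 324 to 598 CPM.

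Lower at 4 h were Vwf, at 69.7 to 142 and 205 to 610 CPM, Ramp2, a co-receptor for Adm, and Icam2. Vwf was lower at 4 h in the other cells as well, while Ramp2 and Icam2 overlapped there. Interferon-stimulated genes were lower in 3 of 11, with Ifi27 at 504 to 1014 and 1220 to 1524 CPM. Arterial and sinusoidal genes did not separate by hour, with 0 of 13 in each list.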

How the data were processed

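Cells of the osteotomy site were profiled by droplet single-cell RNA sequencing in male rats. The authors deposited UMI counts per gene and cell barcode made with Cell Ranger 9.0.0, and the submitters' processing notes also name Seurat, R 4.0.3, mRatBN7.2 and GRCh38 without saying what each was used for. Counts of 8 of the 9 samples were analysed, with 95954800 to 144146202 UMIs per library. Cells were required to show 200 genes or more, with mitochondrial UMIs not above 20%, and the endothelial rule was then applied. The members and the gene lists were chosen with earlier results of these data known.

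UMIs were summed over the endothelial cells of a library and given as CPM. Ratios had 0.5 UMI added, with exact conditional 95% intervals for ratios and Clopper-Pearson intervals for shares. Within a pair, 1 library against 1, there was no test. Across the 3 matched pairs the arm was tested with edgeR 4.0.16 under R 4.3.3 (quasi-likelihood, pair as a block), a fit added after seeing the data. Clusters came from scanpy 1.11.5 (2000 variable genes, 20 components, 15 neighbours, Leiden resolution 0.8, with 0.5 and 1.2 also run) under Python 3.11.15. Doublet scores (Scrublet, expected rate 0.08) marked 2.27 to 4.24% of cells kept above 0.25. Doublets were not removed. The genes named were the rule genes, the fixed lists, the 25 genes with the largest ratio to other cells, the 8 largest ratios in each direction of each pair (at least 40 UMIs over the pair, in at least 5 cells), and genes called in the same direction in all 3 pairs. Which list members are printed with values was chosen after those values were seen. Pair calls were checked on simulated counts with counting error only. These held no differences between cells, so calls carried by 1 cell were not covered. The fit across pairs was run on simulated counts with the same spread for all genes. Of 200 genes simulated with a 4-fold change it called 184, and it also called 8 unchanged genes. Whether it would call a 4-fold change in the measured counts, where 1 cell can carry most UMIs of a gene, was not tested. Alternatives changed the filters, the minimum of UMIs, the membership rule, the depth and the weighting of cells. Leaving out the 4 clusters with foreign markers, and leaving out the arterial-like cluster, were chosen after seeing the data. A result of the alternatives for 1 gene is not reported here.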

Additional observations from a re-analysis of the deposited data

Results flagged for a closer look

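The direction of the arterial difference was not the same in the pairs at 4 h. The median log2 ratio of TOE over TO of the arterial genes was -2.06 on day 2 and 0.88 on day 4. The difference between the days was not tested, since each pair is 1 library against 1. TOE libraries of day 2 and day 4 also differed in the number of sessions received.

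Of 5207 genes measured in all 3 pairs, 77 were called higher in TOE in 1 pair and lower in another. Without the 4 clusters led by markers of other cell classes the number was 105 of 4114 genes, with 36 genes in both sets. Of the 36, 11 were on the endothelial lists. Apln, the tip-cell peptide, had log2 ratios of 1.05 at 2d 4h, -2.17 at 4d 4h and 0.64 in the last pair, 4d 24h. The scavenger receptor gene Mrc1 had, in the same order, 0.52, 1.90 and -2.80, and the sinusoidal nuclease gene Dnase1l3 had 0.12, 1.66 and -2.22. Fn1, the matrix protein fibronectin, had -1.38, 0.30 and 1.31. These differences between pairs were not tested.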

How the results depend on the processing

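With 12 to 85 endothelial cells per library, single cells carried up to 18.1% of the summed UMIs of a library, and no value within a pair has a replicate behind it. The paired fit over the 3 matched pairs, with the pair as a replicate block, called 0 genes with edgeR's quasi-likelihood test. It also called 0 without the block (254 at an unadjusted p under 0.05), 0 without the 4 clusters with foreign markers (247) and 0 to 0 with each pair left out in turn (317 to 481). The smallest adjusted p of each fit ranged from 0.0634, without the 4d 4h pair, to 0.83. Over the alternatives 125 summary values stayed close to those reported (counts within 1.5 times, shares within their 95% interval) and 34 moved, and of the 48 genes with the largest ratios in a pair 404 values kept their call, 6 lost it (Aff3, Lyz2, Ngp, Bach2, S100a8 and Hbb-bs, all without the 4 clusters with foreign markers) and 0 changed direction. Of 204 calls of genes on the endothelial lists, 143 were kept without those clusters, 42 were lost, 2 changed sign (Cldn5 to 0.21 and Ddit4 to -0.16 at 4d 24h) and 17 had too few UMIs. With each cell weighted equally 154 were kept and 43 were lost. Without the cell of most UMIs in each library 16 were lost, among them Bmp2 and Kitlg at 2d 4h, Gja4 and Kitlg at 4d 4h and Vwf at 4d 24h. With scaling by the median ratio 13 were lost and with doublets removed 3. Of the 48 genes with the largest ratios, 27 kept their call without those clusters and 6 lost it. The rest, among them Notch3, Rgs5 and Tagln at 4d 4h, had too few UMIs there to give a value and are in neither count. With a minimum of 50 UMIs 41 kept their call and the rest had too few.

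With a minimum of 5 UMIs over a pair, 661 genes were called higher at 2d 4h, 835 in the 4d 4h pair and 637 in the 4d 24h pair. With a minimum of 50 these were 161, 217 and 119, and 178, 120 and 396 genes were called lower. With each cell weighted equally, 361 genes were called lower at 4d 4h and 2 tip genes. Without the arterial-like cluster 2 arterial genes were called lower at 2d 4h. Without the 4 clusters with foreign markers 1 of 2 pericyte genes measured was called higher at 4d 4h and 0 of 1 B-lineage gene at 2d 4h. There 231 genes were lower than in other cells. The cause of these shifts was not tested beyond the smaller number of genes or cells each uses.

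Requiring 3 of the 7 rule genes instead gave shares of 0.310, 0.300, 0.778 and 0.326% in TO 2d 0h, TO 2d 4h, TO 4d 4h and TO 4d 24h, and of 0.289, 0.977, 0.700 and 0.316% in TOE 2d 4h, TOE 2d 24h, TOE 4d 4h and TOE 4d 24h. With cells thinned to 2000 UMIs the shares were 0.0472% in TO 2d 0h, 0.218% in TO 4d 4h, 0.0486% in TO 4d 24h, 0.0817% in TOE 2d 4h, 0.284% in TOE 2d 24h, 0.265% in TOE 4d 4h and 0.00904% in TOE 4d 24h. Without the 4 clusters they were 0.275% in TO 4d 4h, 0.0885% in TOE 2d 4h, 0.430% in TOE 2d 24h and 0.281% in TOE 4d 4h.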
